A study of Mus musculus with 22 samples.

Results

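Cassette exons that lie between 2 short introns were examined in mouse embryonic stem (ES) cells. A cassette exon is an exon that is either kept in the mature RNA or skipped together with both introns beside it, and each event is 1 such exon with its upstream and downstream neighbour. The events were chosen by size alone. The skipped exon was longer than 60 and shorter than 250 nucleotides, neither flanking intron was longer than 400 nucleotides, and the event was listed in all 7 deposited libraries. Of 6143 events listed in all 7 libraries, 4703 had an exon in this length range and 316 of these had 2 short introns. The other 4387 events of the same exon length range are the comparison. The 316 events hold 306 distinct exons in 250 genes or gene pairs, because some exons were listed with more than 1 neighbour. They form 288 stretches that do not overlap each other.

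RNA was sequenced from cells with and without DNA methyltransferases and with reduced levels of heterochromatin protein 1 (HP1), whose 3 mammalian forms recognise methylated lysine on histone H3 through a chromodomain. TKO cells are mouse ES cells without the DNA methyltransferase genes Dnmt1, Dnmt3a and Dnmt3b, and WT cells are the R1 mouse ES line. The 7 libraries were, first, the triple HP1 knock-down in TKO cells (siRNA against HP1alpha, HP1beta and HP1gamma at 80, 80 and 120 nM) and the triple HP1 knock-down in WT cells (60 nM of each). The others were the single knock-downs of HP1alpha, HP1beta and HP1gamma in WT cells (90 nM), untransfected TKO cells and untransfected WT cells. All cells grew without feeder cells on gelatin, with leukaemia inhibitory factor in the medium, and RNA was taken 48 h after transfection. No library of cells given a control siRNA was used here. The 2 replicates of each group were pooled by the authors before deposit, so each group is 1 library and no spread between replicates can be given. The p-values below compare the reads of libraries, not conditions. The TKO and WT cells come from different sources, so the loss of the 3 enzymes and any other difference between these lines cannot be told apart. Paired-end reads of 101 bases were used for the knock-downs and single-end reads of 50 bases for the untransfected cells, so knock-down, transfection and sequencing platform cannot be told apart either.

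As background, the spliceosome must pair the splice sites at the ends of each intron. Across a short intron the pairing can be made directly (intron definition), whereas an exon between long introns is first recognised as a unit across the exon (exon definition). Short introns are common in compact, GC-rich genes. When an intron is not removed at all it is retained, and a reading frame is kept only when the number of skipped bases is a multiple of 3. DNA methylation and HP1 binding have both been studied as chromatin features that can act on whether an exon is included.

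What such introns look like can be seen in 3 of them, which lie whole within the RefSeq promoter windows (GRCm38.p6) of a neighbouring gene on the opposite strand. They are the upstream introns of the events in Lzic (chr4:149485274-149485368, + strand), Yipf2 (chr9:21592589-21592726, - strand) and Dis3 (chr14:99099187-99099445, - strand). They are shown 5′ to 3′ on the strand of the event, with the first 2 and the last 2 bases, where the splice sites lie, in capitals.
Lzic upstream intron, 95 nucleotides: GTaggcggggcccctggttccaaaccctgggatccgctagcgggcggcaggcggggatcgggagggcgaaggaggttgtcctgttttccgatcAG
Yipf2 upstream intron, 138 nucleotides: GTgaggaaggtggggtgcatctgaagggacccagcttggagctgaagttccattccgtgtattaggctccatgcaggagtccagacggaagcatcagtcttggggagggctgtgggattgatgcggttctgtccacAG
Dis3 upstream intron, 259 nucleotides: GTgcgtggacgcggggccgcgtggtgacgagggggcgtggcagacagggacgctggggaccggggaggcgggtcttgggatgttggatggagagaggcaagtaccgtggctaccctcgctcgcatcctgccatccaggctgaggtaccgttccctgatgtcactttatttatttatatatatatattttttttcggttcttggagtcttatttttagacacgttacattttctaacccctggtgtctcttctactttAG

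All 3 began with GT and ended with AG, the usual intron ends. The GC content was 67.4% in the Lzic intron with 8 CG dinucleotides, 56.5% in the Yipf2 intron with 3, and 52.5% in the Dis3 intron with 16. Of the 20 bases before the final AG, pyrimidines made up 14 in Lzic, 12 in Yipf2 and 16 in Dis3. The 3 exons behind these introns differed widely in level. The Dis3 exon, in a gene for an exosome ribonuclease, was almost always skipped, at a deposited inclusion level of 0.03 to 0.07 in the 7 libraries. The Yipf2 exon was at 0.84 to 0.91 in the 5 knock-down libraries, 0.70 in TKO and 0.55 in WT. The Lzic exon was at 0.31 in the triple knock-down in TKO, 0.28 in the triple knock-down in WT, 0.57 to 0.74 in the single knock-downs, 0.45 in TKO and 0.82 in WT. The inclusion level is the authors' estimate of the share of transcripts that keep the exon, between 0 and 1.

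Some of these introns hold a microRNA hairpin. A hairpin annotated by RefSeq lay in the introns of 4 of the 316 events, against 28 of the 4387 other events. In 3 of the 4 the hairpin's last base was also the intron's last base. These 3 are shown with the mature miRNA arms in capitals, to let the shared end of hairpin and intron be seen.
Mir6992, in the 155-nucleotide downstream intron of the Stx5a event (chr19:8742971-8743079, + strand): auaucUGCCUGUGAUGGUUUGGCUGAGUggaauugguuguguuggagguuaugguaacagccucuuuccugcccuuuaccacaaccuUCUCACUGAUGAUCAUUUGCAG
Mir6998, in the downstream intron of a Fubp3 event (chr2:31612421-31612484, + strand): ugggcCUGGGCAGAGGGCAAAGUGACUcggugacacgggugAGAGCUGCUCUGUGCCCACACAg
Mir7053, in the 221-nucleotide upstream intron of a Pold1 event (chr7:44538106-44538178, - strand): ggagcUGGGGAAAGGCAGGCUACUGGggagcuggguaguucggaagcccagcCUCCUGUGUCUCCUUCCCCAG

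Among the 25 hairpins of the other events, 6 ended at the 3′ splice site. The fourth hairpin was Mir5121 in the 196-nucleotide upstream intron of an event in Rpl13a, a ribosomal protein gene. It began 1 base before the intron and ended 123 bases before its 3′ end. The Stx5a exon was at 0.91 to 0.98 in the 7 libraries and the Pold1 exon at 0.97 to 1.00, whereas the Fubp3 exon was mostly skipped, at 0.01 to 0.02 in the knock-downs, 0.11 in TKO and 0.17 in WT.

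Depth differed between the libraries. The events of a library held 4677236 to 9750348 reads in the knock-downs, 25200437 in TKO and 25941844 in WT. The 316 events had a median of 77 to 145 reads in the knock-downs that fit only 1 of both isoforms, 260 in TKO and 268 in WT. Read counts over events of the targeted genes were at 0.399 for Cbx5 (HP1alpha), 0.324 for Cbx1 (HP1beta) and 0.634 for Cbx3 (HP1gamma) in the single knock-down of that gene, relative to the single knock-downs of the other genes. They were at 0.352 to 0.71 in the triple knock-downs on the same scale. Against untransfected cells, which were sequenced on another platform, the targeted genes were not always lower. Cbx1 was at 1000 RPM (event reads scaled to the library's total) in the triple knock-down in TKO, 551 in the triple knock-down in WT, 507 in the HP1beta knock-down and 1520 to 1620 in the other single knock-downs, against 659 in TKO and 615 in WT. Cbx3 was at 32.2 to 52.2 RPM in all 5 knock-downs, those of other targets included, against 480 in TKO and 457 in WT. In TKO relative to WT they were at 0.45 for Dnmt3a and 0.157 for Dnmt3b, and an event of Dnmt1 was not analysed here. Of 16 ES cell marker genes, 6 had an event, all 6 in every library. They summed to 2490 RPM in the triple knock-down in TKO, 3330 in the triple knock-down in WT, 3060 to 3140 in the single knock-downs, 2440 in TKO and 2700 in WT. Of 7 primitive endoderm markers, 2 to 3 were listed in the 2 TKO-derived libraries (66.7 with and 99.5 without knock-down) and 1 to 2 in the 5 WT-derived ones (22.3 to 26.4). Of 5 neural markers, 1 was listed in the triple knock-down in TKO (24.3), 2 in TKO (30.7) and 2 in WT (23.1), with none in the knock-downs in WT. The fibroblast gene Fn1, the only one listed of 11 fibroblast and mesenchyme markers, was at 289 to 433. The part of these differences in the splicing results was not tested.

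The short introns follow from the choice of the 316 events. Their median was 189.5 nucleotides upstream and 196.5 downstream, against 1873 and 1814 in the other events. Exon length did not set the groups apart, with a median of 116 nucleotides against 115. Upstream and downstream length were nearly unrelated among the 316 events, with a Spearman correlation of 0.1 over events. The skipped exon was a multiple of 3 in 145 of 316 events (45.9%), against 1868 of 4387 others (42.6%). Among the 52 events with a level of at least 0.95 in all 7 libraries the share was 33 of 52 (63.5%). It was 13 of 35 (37.1%) among the events at or below 0.2 in all 7. Promoters of the genes, from 250 bases before to 50 bases after the start, had a median GC content of 61% for the 207 genes with these events that had a match (83.1%). The median was 62.3% for genes with only other events and 53.3% for all genes in the RefSeq table.

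**Figure D1:**
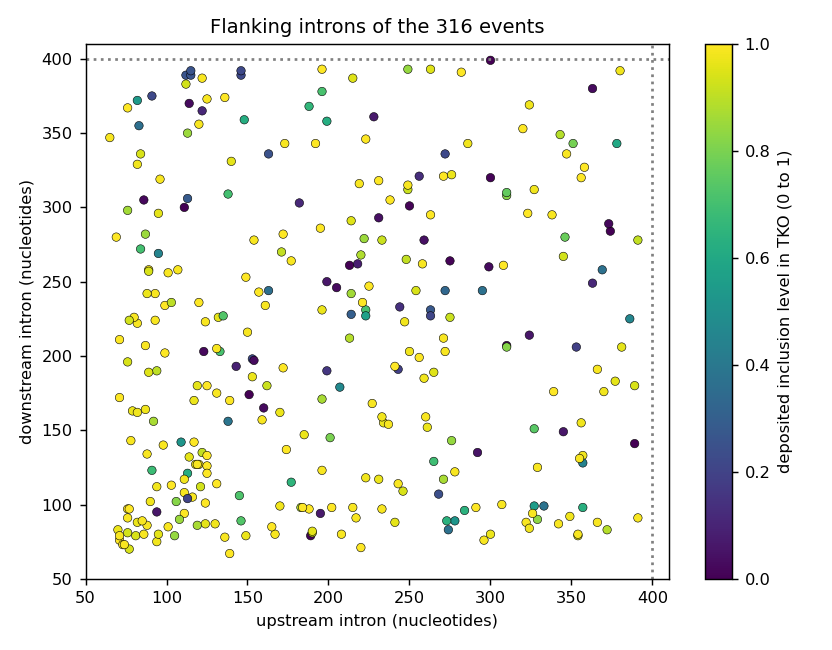
Length of the upstream intron (x axis) and the downstream intron (y axis) in nucleotides for the 316 events, 1 point per event, with the colour giving the deposited inclusion level in TKO (0 to 1). Dotted lines mark the 400-nucleotide limit. High levels (yellow) occur over the whole plot and make up a higher share of the points near the corner with 2 very short introns. No band of upstream length goes with a band of downstream length.

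The events were spread unevenly over the genome. They were 13.5% of the events of this exon length range on chromosome 19, 13.0% on chromosome 17, 12.3% on chromosome X and 11.1% on chromosome 7. The share was 1.15% on chromosome 18, 1.48% on chromosome 13 and 1.64% on chromosome 16, against 6.72% over all chromosomes. On chromosome 17, 18 of the 38 events between 33940024 and 36257706 (47.4%) had 2 short introns. This segment, chosen after its values were seen, lies in the H2 (major histocompatibility) region, and its 12 genes with such events include Ehmt2, Bag6, Brd2, Dxo, Stk19, Flot1, Skiv2l and Vars. Events that share a gene are not independent of each other.

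Exons between 2 short introns were included more often than the other exons of their size. In TKO, 175 of 316 (55.4%, exact 95% interval 49.7 to 60.9) had a level of at least 0.95, against 1869 of 4387 others (42.6%, 41.1 to 44.1). In WT it was 169 of 316 (53.5%, 47.8 to 59.1) against 1744 of 4387 (39.8%, 38.3 to 41.2). The median level was 0.88 to 0.89 in the knock-downs, 0.96 in TKO and 0.96 in WT, against 0.71 to 0.74, 0.88 and 0.84 for the other events in the same libraries. The gap was widest in the lower quartile, at 0.66 against 0.18 in TKO and 0.62 against 0.16 in WT. Mostly skipped exons, with a level of at most 0.2, were correspondingly fewer, with 12.7% against 25.7% in TKO and 13.9% against 26.8% in WT. The intervals cover counting error only, and events are not replicates, so no test of the 316 against the others was made.

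**Figure D2:**
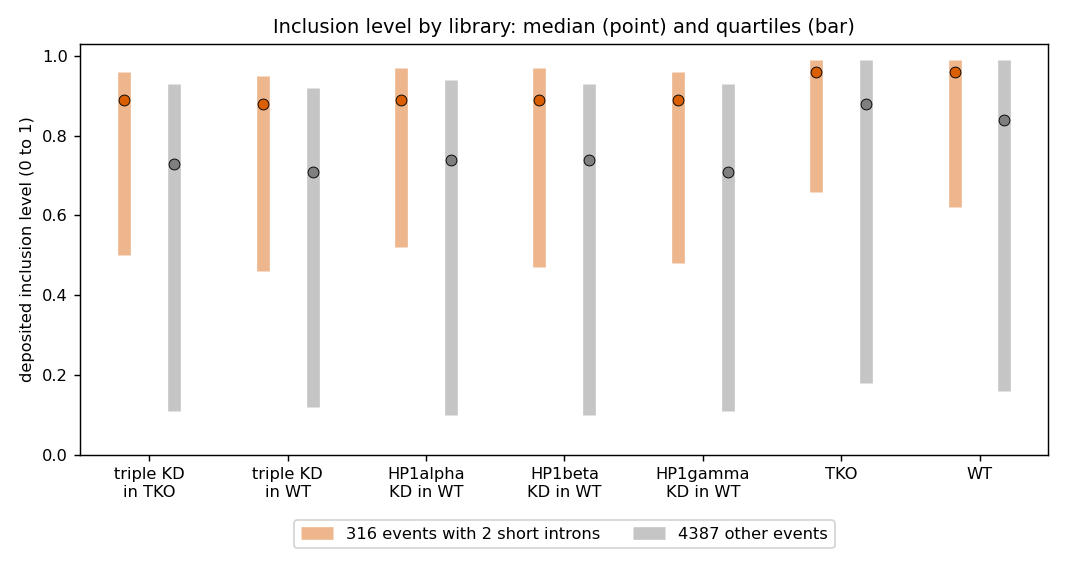
Deposited inclusion level (y axis, 0 to 1) in each of the 7 libraries, with the median as a point and the quartiles as a bar, for the 316 events (orange) and the 4387 others (grey). The orange medians lie at 0.88 to 0.96 and the grey ones at 0.71 to 0.88, with the orange one higher in every library.

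The difference was also there above a floor on depth. Among events with at least 100 distinguishing reads in TKO, 166 of 250 (66.4%) had a level of at least 0.95, against 1745 of 3114 others (56.0%). In WT it was 157 of 253 (62.1%) against 1619 of 3044 (53.2%). Depth was not matched beyond this floor, with a median of 352 distinguishing reads against 335 in TKO and 358 against 327 in WT. A single short intron did not go with the same levels. With only the upstream intron short, the median was 0.83 in TKO and 0.83 in WT over 574 events. With only the downstream intron short, it was 0.92 in TKO and 0.90 in WT over 590 events. With neither short, it was 0.88 in TKO and 0.84 in WT over 3223 events.

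Within the 316 events, shorter introns went with higher inclusion. Where the longer intron had at most 150 nucleotides, 71.4% of 56 events reached 0.95 in TKO and 64.3% in WT. At 151 to 250 nucleotides it was 62.8% of 94 events in TKO and 59.6% in WT. At 251 to 400 nucleotides it was 45.8% of 166 events in TKO and 46.4% in WT, close to the 44.7% and 42.0% at 401 to 1000 nucleotides just beyond the limit. Mostly skipped exons went the other way, at 3.57%, 12.8% and 15.7% in TKO over the 3 classes. The Spearman correlation between level and the longer intron was -0.22 in TKO and -0.22 in WT over 316 events. It was 0.06 in TKO and 0.11 in WT with exon length, and 0.11 in TKO and 0.13 in WT with read depth.

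**Figure D3:**
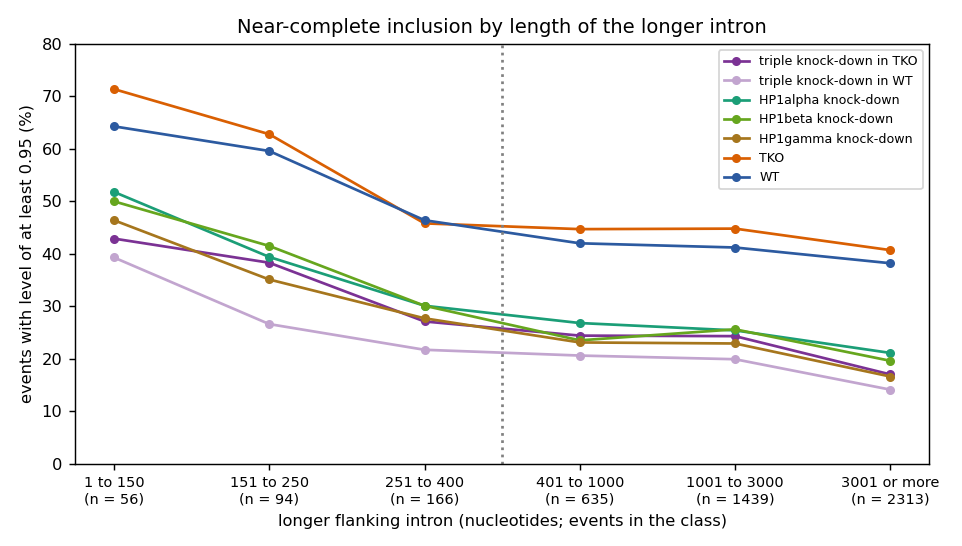
Share of events with a deposited inclusion level of at least 0.95 (y axis, %) by length of the longer flanking intron (x axis, 6 classes with the number of events), 1 line per library. Left of the dotted line at 400 nucleotides, the line for TKO passes through 71.4, 62.8 and 45.8%, and to the right of that limit it stays between 40.7 and 44.8%; the 5 knock-down lines lie below both untransfected ones in every class.

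Low and high levels lay on both sides of the limit. The 4 events just inside had a longer intron of 393 to 399 nucleotides. They were a Carm1 exon at 0.00 to 0.01 in the 7 libraries, an Atp5k exon at 0.95 to 1.00 and the 2 overlapping Chtf8/Derpc exons described below. The 4 just outside, at 402 to 403 nucleotides, were exons of Ypel3 (0.01 to 0.10), Sipa1l3 (0.01 to 0.04), Nr2c2ap (0.75 to 0.91) and an event on chromosome 17 in no gene span (0.64 to 0.94).

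Reads that fit neither isoform were counted by the authors for each event. They include reads in the introns and reads outside both isoforms, which the deposited counts do not separate. Their median share was 59.5 to 62.2% in the knock-downs, 27.0% in TKO and 26.8% in WT for the 316 events. In the other events it was 64.4 to 65.4%, 38.5% and 38.0%. The share was lower in the 316 events than in the others in each library, and higher in every knock-down library than in either untransfected one. Scaling these reads to intron length divides them by the lengths that define the 316 events. The outcome is thus partly set by the choice of events. The order of the groups turned round for the reads scaled in this way. Per read that fitted an isoform and per kilobase of intron, their median was 4.09 to 4.43 in the knock-downs, 0.968 in TKO and 1.01 in WT for the 316 events, against 0.415 to 0.436, 0.142 and 0.139 for the others. The sequencing platform differs along the same line. Events with the longest introns, of 3001 nucleotides or more, had 46.9% in TKO and 45.9% in WT.

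The deposited level and the reads that tell the isoforms apart did not always move together. No read fitted the skipping isoform alone in 127 to 154 of the 316 events in the knock-downs, 204 in TKO and 168 in WT. In 81 of the 316 (25.6%) there was none in any library, against 805 of 4387 others (18.3%). Of the 69 among these with at least 20 inclusion reads in each library, 5 still had levels more than 0.3 apart between libraries (7.25%, against 37 of 545 others, 6.79%). They were exons of Acd, Hsd3b7, Klhl17, Shc1 and Trim25. The Shc1 exon, in a gene for a signalling adaptor, had levels of 0.70 in the triple knock-down in TKO, 0.70 in the triple knock-down in WT, 0.66 to 0.80 in the single knock-downs, 0.99 in TKO and 1.00 in WT, with no skipping read in any of them. How the estimate weighs each class of reads could not be examined, so reads are given beside the levels for some events below. For events given by level alone, the difference in reads can be much smaller than that in level.

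Of the 6 events with the shortest summed introns, 4 were close to full inclusion in all 7 libraries. Imp4, a U3 snoRNP component of ribosome assembly, had 2 introns of 73 nucleotides and levels of 0.99 to 1.00 in the 7 libraries. The kinase gene Akt1 (71 and 76 nucleotides) was at 0.97 to 1.00, the nucleoside diphosphate kinase gene Nme3 (74 and 73) at 0.98 to 0.99, and the syntaxin gene Stx4a (70 and 83) at 0.96 to 0.99. Hsf1, the heat shock transcription factor, had introns of 77 and 70 nucleotides. Its level was 0.88 in the triple knock-down in TKO, 0.85 in the triple knock-down in WT, 0.66 to 0.77 in the single knock-downs, 0.94 in TKO and 0.84 in WT. A 192-nucleotide exon of U2af1l4 (71 and 79) overlaps a 99-nucleotide form of the same exon, which differs in its downstream splice site. The long form was at 0.60 in the triple knock-down in TKO, 0.25 in the triple knock-down in WT, 0.12 to 0.30 in the single knock-downs, 0.99 in TKO and 0.95 in WT, with no skipping read in any library. The short form was at 0.92 to 1.00.

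The 3 events with most reads of all classes sat at both extremes. Actb (beta actin) and Eef1b2 (an elongation factor subunit) had exons that were almost always skipped, at 0.00 to 0.02 and 0.00 to 0.01. Bex1, an X-linked gene, had an exon at 0.90 to 0.93 in the knock-downs, 1.00 in TKO and 0.92 in WT. Genes such as Actb, Eef1b2, Rpl10, Rpl13a and Gpx4 have near-identical copies elsewhere in the genome. Reads from those copies cannot be told apart here, and reads of antisense genes cannot either, because no strand setting is given in the sources used here.

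Only 17 of the 316 events lay between 0.2 and 0.8 in all 7 libraries (5.38%, against 7.57% of the others). The one with most distinguishing reads was the 102-nucleotide exon of Ehmt2 (chr17:34905610-34905711), the gene of the histone H3 lysine methyltransferase G9a, at 0.20 to 0.42. Rif1, a regulator of replication timing, held its 78-nucleotide exon at 0.63 to 0.73. The tRNA modification gene Gtpbp3 was at 0.55 to 0.63, and the arginine methyltransferase gene Carm1 at 0.66 to 0.78 for its 69-nucleotide exon. For 0610010K14Rik (Bap18) the range was 0.21 to 0.58, and for Dnajc5, a vesicle-associated co-chaperone, 0.22 to 0.70. Over all 316 events the median range over the 7 libraries was 0.11, against 0.13 for the others. It was above 0.3 in 54 events (17.1%, against 21.0%).

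TKO against WT asks what the loss of the DNA methyltransferases goes with. A call needed an adjusted p no higher than 0.05 from Fisher's exact test on the reads for either isoform, a difference of at least 0.1 between the levels and at least 20 such reads per library. In TKO, 8 of 299 tested events rose and 5 fell relative to WT. These 13 are 4.35% of the events tested, against 4.57% over all 7695 events tested in this comparison, of which 3.18% rose and 1.39% fell. Without any filter on the level, 27 events passed the adjusted p (9.03%, against 8.94% over all events tested). The median absolute difference in level was 0.01 in these 299 and 0.02 over all events tested.

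The exon with the largest rise lies on chromosome 12 (110977664 to 110977770) in no gene span. Its level was 0.65 in TKO and 0.22 in WT, with 46 inclusion and 11 skipping reads in TKO against 20 and 40 in WT (adjusted p = 1.16e-05, Fisher's exact test). Next came 2 overlapping exons in the span shared by Chtf8, a subunit of a clamp loader for sister chromatid cohesion, and Derpc. The 132-nucleotide form was at 0.84 in TKO and 0.51 in WT (adjusted p = 2.32e-14, exact test), and the 118-nucleotide form at 0.95 and 0.71, from partly the same reads. Dnajc5 was at 0.70 in TKO and 0.43 in WT, with 172 inclusion and 35 skipping reads in TKO against 147 and 133 in WT (adjusted p = 1.17e-10, exact test). These exons were all partial in WT.

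A 96-nucleotide exon of U2af1l4 (chr7:30564703-30564798), which encodes a relative of the small U2AF subunit that reads the 3′ splice site, was at 0.96 in TKO and 0.75 in WT. It had no skipping read among 121 distinguishing reads in TKO, against 34 beside 212 inclusion reads in WT (adjusted p = 3.51e-05, exact test). Trit1, a tRNA isopentenyltransferase gene, was alike, at 0.99 in TKO and 0.81 in WT with 0 skipping reads in TKO and 30 in WT. The 2410004B18Rik exon was at 0.30 in TKO and 0.11 in WT. The exon of Gas2l1, a cytoskeletal linker, was at 0.62 in TKO and 0.52 in WT, the smallest of the rises.

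Among the 5 that fell, 2 encode chromatin enzymes. The Ehmt2 exon was at 0.23 in TKO and 0.42 in WT, with 107 inclusion and 165 skipping reads in TKO against 370 and 230 in WT (adjusted p = 6.19e-08, exact test). For Kat5, the acetyltransferase Tip60, the level fell to 0.52 in TKO, against 0.65 in WT, but the reads went the other way, with 55 inclusion and 0 skipping reads in TKO against 180 and 41 in WT. Gtf3c2, a subunit of RNA polymerase III factor TFIIIC, was at 0.13 in TKO and 0.37 in WT (adjusted p = 1.42e-07, exact test). Bag6, a chaperone for newly made proteins, was at 0.62 in TKO and 0.81 in WT (adjusted p = 3.67e-11, exact test). Eif5, the translation factor that activates GTP hydrolysis by eIF2, was at 0.37 in TKO and 0.54 in WT. Its reads were 1500 for inclusion and 80 for skipping in TKO, against 2436 and 18 in WT.

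The triple knock-downs give a second, separately sequenced pair of the same cell lines, in which cell line and siRNA dose cannot be told apart (80, 80 and 120 nM in TKO, 60 nM of each in WT). Cbx1 was at 0.641 in the triple knock-down in TKO and 0.352 in the triple knock-down in WT, relative to the single knock-downs of other genes. In the triple knock-down in TKO, 1 of 272 tested events fell relative to the triple knock-down in WT and none rose (0.368%, against 0.469% over all 4473 events tested). It was the Ehmt2 exon, at 0.20 in TKO and 0.30 in WT, with 154 inclusion and 203 skipping reads in TKO against 267 and 182 in WT (adjusted p = 0.00139, Fisher's exact test). At an unadjusted p under 0.05 there were 10 events (3.68%, against 5.3% over all events tested). All 13 events called without knock-down had enough reads for a test here. In 5 the difference in level had the same sign, in 6 the opposite sign and in 2 it was 0. Over all 209 events that were called without knock-down and tested here, 143 (68.4%) kept the sign and 7 were called. The median absolute difference of the 13 events was 0.19 without knock-down and 0.04 with it. Over all 209 events it was 0.16 without knock-down and 0.06 with it. The events were called by their difference without knock-down, so a smaller difference in the second pair is partly set by the choice of events. Those with the same sign were Ehmt2, Gtf3c2 (0.07 in TKO, 0.13 in WT), Bag6 (0.63 in TKO, 0.71 in WT), Trit1 (0.82 in TKO, 0.76 in WT) and 2410004B18Rik (0.14 in TKO, 0.10 in WT). The Chtf8/Derpc, Dnajc5 and U2af1l4 exons, with large rises in untransfected TKO, differed by 0.02 to 0.07 in the opposite direction.

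**Figure D4:**
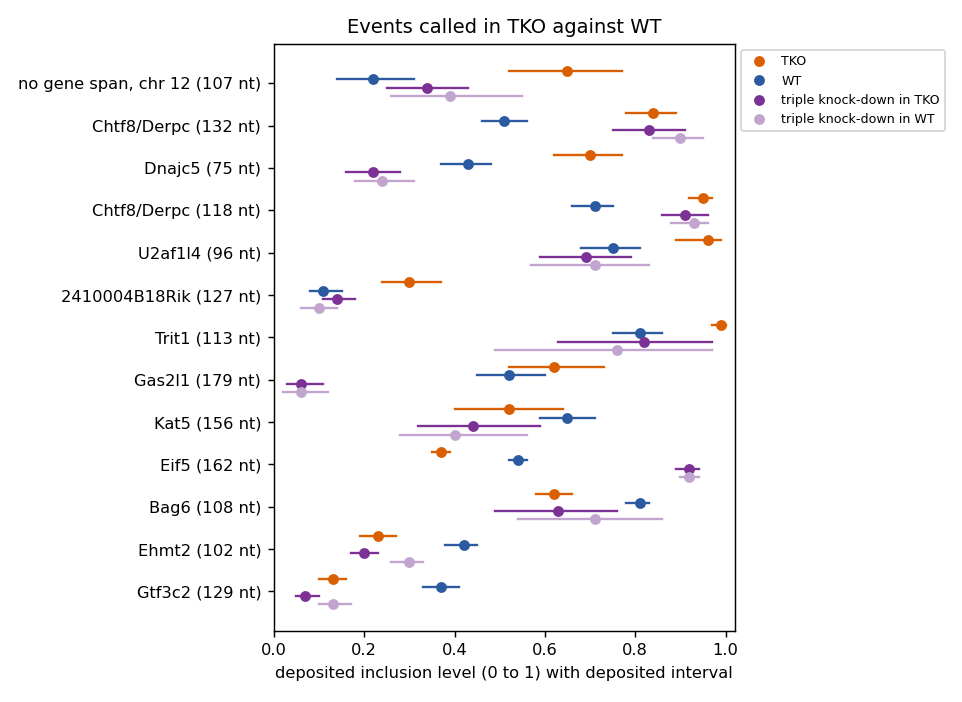
Deposited inclusion level (x axis, 0 to 1) with the deposited interval for the 13 events called in TKO against WT (y axis, gene and exon length in nucleotides), in 4 libraries. Orange (TKO) and dark blue (WT) stand apart in most of the 13, which were called on these libraries. The purple points (triple knock-downs) mostly overlap each other. For Ehmt2 each TKO-derived library lies below its WT-derived partner, at 0.23 against 0.42 and 0.20 against 0.30.

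The triple knock-down in WT was set against the single knock-downs, which used more siRNA per target (90 nM, against 60 nM in the triple). Of 273 tested events none was called in the triple knock-down in WT against the 3 pooled single knock-downs, by Fisher's exact test or by an exact test whose expected odds ratio came from events of like exon length. At an unadjusted p under 0.05 there were 3 (1.1%, against 2.69% over all events tested). Over all 4655 events tested 0.043% were called. The 3 single knock-downs were also close to each other. Their levels had a median range of 0.03 over the 316 events, against 0.04 for the others. They were more than 0.2 apart in 9 events (2.85%, against 5.81%), and none of the 167 events with at least 100 distinguishing reads in each was among them.

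Knock-down against untransfected cells gave many more calls, most of them lower. In the triple knock-down in WT, 4 of 271 tested events rose and 22 fell relative to WT (9.59%, against 11.2% over all events tested, of which 1.83% rose and 9.37% fell). In the pooled single knock-downs, 6 of 300 rose and 30 fell (12%, against 14.8%; over all events tested 2.25% rose and 12.6% fell). In the triple knock-down in TKO, 3 of 281 rose and 25 fell relative to TKO (9.96%, against 12.3%; over all events tested 1.31% rose and 10.9% fell). The first 2 of these comparisons share the WT library. In all, 48 events in 40 genes were called in at least 1 of the 3, and 14 in all 3. The 5 knock-down libraries lay close together, with a median range of 0.07 over these 48 events and at most 0.26. In 40 of them all 5 knock-down levels lay on the same side of both untransfected levels. The calls were made on the levels of these same libraries, so that count is partly set by the choice of events. The share of reads that fit neither isoform and the sequencing platform changed along with these calls, and their part was not tested.

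The widest gap was in Rpl10, a protein of the large ribosomal subunit. Its 163-nucleotide exon (chrX:74272672-74272834) was at 0.24 in the triple knock-down in TKO, 0.30 in the triple knock-down in WT, 0.28, 0.27 and 0.23 in the knock-downs of HP1alpha, HP1beta and HP1gamma, 0.99 in TKO and 1.00 in WT. All 5 knock-down libraries were far below both untransfected ones. Yet inclusion reads prevailed throughout, with 976 against 12 skipping reads in the triple knock-down in TKO, 486 against 6 in the triple knock-down in WT, 17739 against 62 in TKO and 22109 against 4 in WT. The adjusted p was 4.86e-07 for the triple knock-down in WT against WT (Fisher's exact test), although the share of inclusion reads differed by only 1.2 percentage points.

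The size of the read difference varied among the calls. The share of inclusion reads moved the same way as the level and by at least 10 percentage points in 19 of the 26 events called for the triple knock-down in WT, in 16 of the 36 for the pooled singles and in 16 of the 28 for the triple knock-down in TKO. For TKO against WT it was 11 of 13. Among the clear cases was Gas2l1, at 0.06 in the triple knock-down in TKO, 0.06 in the triple knock-down in WT, 0.09 to 0.13 in the single knock-downs, 0.62 in TKO and 0.52 in WT. It had 10 inclusion and 56 skipping reads in the triple knock-down in TKO, against 119 and 1 in TKO (adjusted p = 9.1e-34, exact test). Gtf3c2 was at 0.07 in the triple knock-down in TKO, 0.12 to 0.14 in the 4 knock-downs in WT, 0.13 in TKO and 0.37 in WT, with 68 inclusion and 228 skipping reads in the triple knock-down in WT against 213 and 145 in WT (adjusted p = 1.95e-19, exact test). The gap was thus between WT and every other library.

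Falls were also called in genes of widely different roles. Gpx4, the peroxidase that protects membranes from lipid peroxides, was at 0.08 in the triple knock-down in TKO, 0.18 in the triple knock-down in WT, 0.22 to 0.30 in the single knock-downs, 0.68 in TKO and 0.66 in WT. Idh2, a mitochondrial isocitrate dehydrogenase, was at 0.71 in the triple knock-down in TKO, against 0.94 in TKO, and the pooled singles were at 0.82, against 0.96 in WT. The F-box gene Fbxw5 was at 0.66 in the triple knock-down in WT, against 0.93 in WT. Zdhhc4, a palmitoyltransferase gene, was at 0.05 in the triple knock-down in WT, against 0.30 in WT. The lysosomal glucuronidase gene Gusb was at 0.84 in the pooled singles, against 0.98 in WT.

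In 0610010K14Rik (Bap18), 4 events with 2 exon forms and 2 downstream neighbours shared reads and fell together. The 105-nucleotide form with the 227-nucleotide downstream intron was at 0.23 in the triple knock-down in TKO, 0.21 in the triple knock-down in WT, 0.22 to 0.24 in the single knock-downs, 0.57 in TKO and 0.58 in WT. It had 67 inclusion and 92 skipping reads in the triple knock-down in WT, against 331 and 103 in WT (adjusted p = 9.94e-13, exact test). Stk19, listed with 2 overlapping exons, was at 0.31 and 0.60 in the triple knock-down in TKO, against 0.94 and 0.95 in TKO. In the pooled singles it was at 0.17 and 0.52, against 0.81 and 0.90 in WT. Lsm14b, an RNA-binding protein gene, was at 0.65 in the triple knock-down in WT, against 0.87 in WT, and the signalling adaptor gene Sh2b1 at 0.74, against 0.95 in WT. The mitochondrial GTPase gene Gtpbp6 was at 0.62, against 0.99 in WT, with 25 inclusion and 6 skipping reads in the triple knock-down in WT against 311 and 1 in WT. An exon on chromosome 4 (117121198 to 117121329) in no gene span was at 0.44, against 0.98 in WT.

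Smaller falls were called in several further genes. Kdm5c, an X-linked histone H3 lysine demethylase, was at 0.76 in the triple knock-down in WT, against 0.87 in WT. Kmt5c, a histone H4 lysine methyltransferase, was at 0.90, against 1.00 in WT. The telomere maintenance gene Ctc1 was at 0.81, against 0.98 in WT. For Maf1, a repressor of RNA polymerase III, the 140-nucleotide form of an exon was at 0.82 in the pooled singles, against 1.00 in WT. The overlapping 135-nucleotide form was at 0.98 to 1.00 in all 7 libraries. Tcof1, which encodes the nucleolar protein treacle, was at 0.82 in the pooled singles, against 0.94 in WT. Irak1, a kinase of interleukin-1 signalling, was at 0.16 in the pooled singles, against 0.35 in WT, and the focal adhesion gene Zyx at 0.76, against 0.93 in WT.

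Some events were called for the triple knock-down in TKO and in neither comparison in WT cells. They included Rpusd1 (0.70, against 0.99 in TKO), Capn15 (0.55, against 0.84 in TKO), Lrrc45 (0.80, against 0.99 in TKO), Slc27a3 (0.84, against 0.98 in TKO) and Tmem208 (0.84, against 0.97 in TKO). Each of these had 4 to 8 skipping reads in the triple knock-down and 0 in TKO, so few reads carry them. All 5 were tested in the comparison of both knock-down differences below and none was called there, which does not show that the differences were alike.

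Few events rose with knock-down. The exon of Srsf1 (chr11:88049412-88049598), the founding SR protein, was at 0.98 in the triple knock-down in TKO, 0.98 in the triple knock-down in WT, 0.99, 0.99 and 0.97 in the knock-downs of HP1alpha, HP1beta and HP1gamma, 0.71 in TKO and 0.74 in WT. It had 778 inclusion and 3 skipping reads in the triple knock-down in WT, against 6265 and 196 in WT (adjusted p = 1.17e-05, exact test). Nop56, a core protein of box C/D snoRNPs, was at 0.95 in the triple knock-down in TKO, 0.89 in the triple knock-down in WT, 0.88 to 0.89 in the single knock-downs, 0.60 in TKO and 0.51 in WT, for its 101-nucleotide exon with the 378-nucleotide upstream intron. The same exon with a 173-nucleotide upstream intron was at 0.96 to 1.00 in all 7 libraries. The level of 1 exon thus differed with the upstream neighbour its event was built from.

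Eif5 was at 0.92 in the triple knock-down in TKO, 0.92 in the triple knock-down in WT, 0.93 to 0.94 in the single knock-downs, 0.37 in TKO and 0.54 in WT. Only the rise in the triple knock-down in TKO was called (adjusted p = 6.35e-12, exact test). It had 1737 inclusion and 16 skipping reads, against 1500 and 80 in TKO. The triple knock-down in WT had 1393 and 13, against 2436 and 18 in WT. Inclusion reads thus prevailed in each of these libraries, and in WT cells their share did not rise with the level. The next exon of Eif5, of 165 nucleotides, was at 0.98 to 0.99 in all 7 libraries. The 132-nucleotide Chtf8/Derpc exon was at 0.83 in the triple knock-down in TKO, 0.90 in the triple knock-down in WT, 0.83 to 0.85 in the single knock-downs, 0.84 in TKO and 0.51 in WT. WT was again the library apart. Renbp, an X-linked epimerase gene, held exons whose levels moved in opposite directions in WT cells. The 76-nucleotide exon that starts at 73930187 was at 0.97 in the pooled singles, against 0.61 in WT. The 76-nucleotide exon that starts at 73930005 was at 0.78, against 0.92 in WT, with 381 inclusion and 18 skipping reads against 190 and 0. In the triple knock-down in TKO both were higher than in TKO, without a call, at 0.95 against 0.72 and 0.92 against 0.74. For Man2c1, an alpha-mannosidase gene, and Dxo, a decapping exonuclease gene, the level rose while the reads went the other way. Man2c1 had 250 inclusion and 12 skipping reads in the pooled singles against 124 and 0 in WT, and Dxo 343 and 11 in the triple knock-down in TKO against 216 and 0 in TKO.

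**Figure D5:**
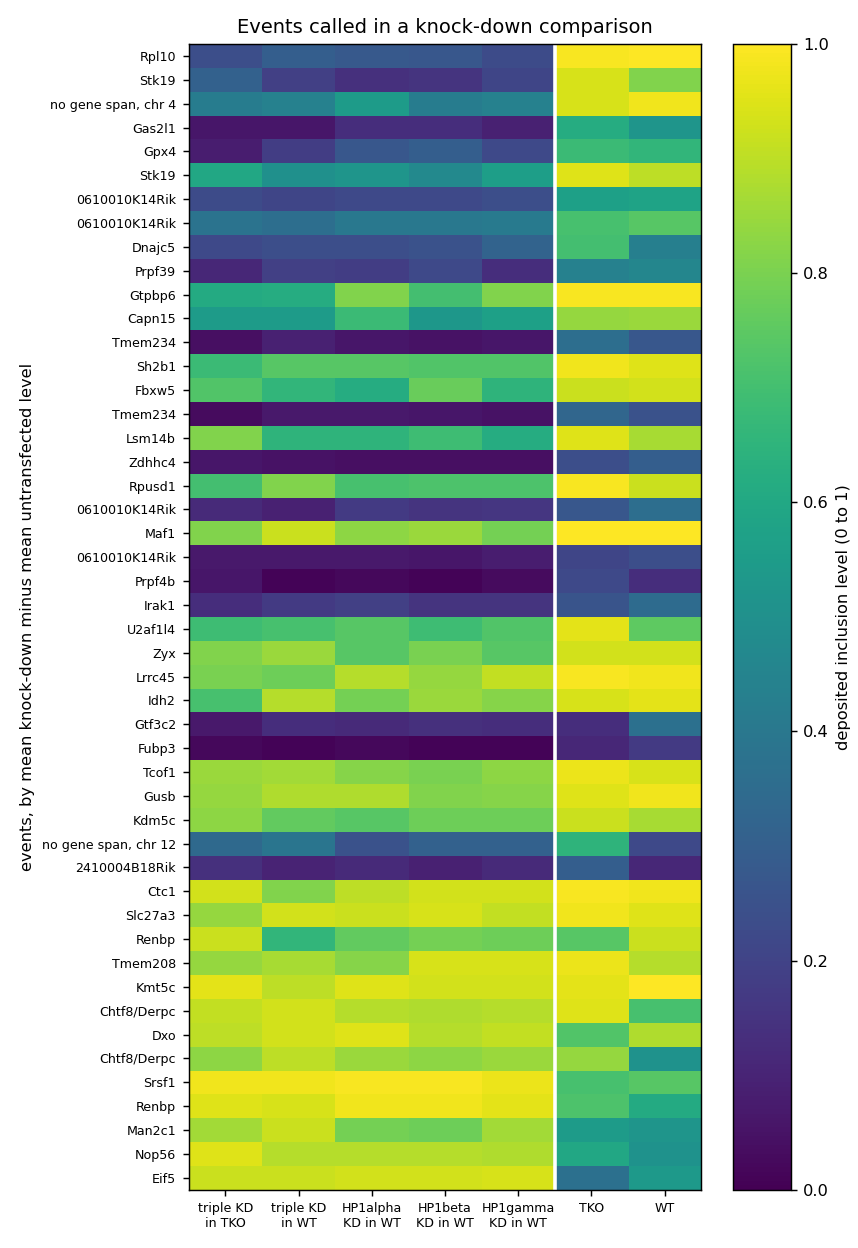
Deposited inclusion level (colour, 0 to 1) of the 48 events called in at least 1 knock-down comparison (rows, by mean knock-down minus mean untransfected level) in the 7 libraries (columns), with the 5 knock-downs left of the white line and TKO and WT right of it. Most rows are darker on the left, led by Rpl10 at 0.23 to 0.30 against 0.99 and 1.00; the lowest rows, among them Eif5, Nop56 and Srsf1, are brighter on the left.

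A further test asked whether the odds ratio of knock-down to untransfected cells was the same in TKO and WT cells (Zelen's exact test). Of 266 events 9 were called (adjusted p no higher than 0.05, 3.38%, against 2.69% over all 4344 events tested). They were exons of Bex1, Actb, Eif5, Dnajc5, Rpl10, U2af1l4, Hdgf and Gas2l1 and the chromosome 12 event in no gene span. Of these, 5 were also called in TKO against WT without knock-down. Both tests use the reads of the same untransfected libraries, so they are not independent. In Actb and Hdgf the levels stayed at or below 0.02 in all 4 libraries.

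The share of events with 2 short introns differed between gene groups. Of the 37 events of this exon length range in genes of the core spliceosome, 9 had 2 short introns (24.3%, against 6.72% over all genes). It was 16 of 111 (14.4%) for chromatin and DNA methylation regulators, 6 of 33 (18.2%) for translation and ribosome, 7 of 82 (8.54%) for cytoskeleton, adhesion and polarity and 4 of 69 (5.8%) for the ubiquitin pathway. SR proteins and their kinases had 1 of 32 (3.12%, Srsf1) and hnRNP genes and other splicing regulators 2 of 54 (3.7%, both in Fubp3). No test of these shares was made, and the lists were chosen with earlier results of these data known.

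The 9 core spliceosome events lay in 5 genes, Prpf39, Prpf40b, Prpf4b, Thoc6 and U2af1l4. Several were in U2af1l4, among them the overlapping 99- and 192-nucleotide forms of the same exon, so their high share rests on few genes. The median level of the 9 was 0.96 in TKO and 0.84 in WT, each the level of a different U2af1l4 exon. Event by event, the median absolute difference between TKO and WT was 0.02. In TKO 1 of 9 rose and none fell, relative to WT (over all events tested, 3.18% rose and 1.39% fell). In the triple knock-down in WT 2 of 7 fell and none rose (over all events tested, 9.37% fell and 1.83% rose). In the triple knock-down in TKO 2 of 7 fell and none rose (over all events tested, 10.9% fell and 1.31% rose). Counts this small cannot be told apart from those shares. Prpf39, a U1 snRNP-associated factor, had a 163-nucleotide exon at 0.11 in the triple knock-down in TKO, 0.19 in the triple knock-down in WT, 0.13 to 0.22 in the single knock-downs, 0.44 in TKO and 0.46 in WT. The fall in the triple knock-down in WT was called with 18 inclusion and 18 skipping reads against 82 and 28 in WT (adjusted p = 0.0453, exact test). The other Prpf39 exon, of 100 nucleotides, was at 0.20 to 0.45. Prpf4b, a kinase of the pre-mRNA processing machinery, had an exon at 0.06 in the triple knock-down in TKO, 0.01 in the triple knock-down in WT, 0.01 to 0.03 in the single knock-downs, 0.22 in TKO and 0.13 in WT. Thoc6, a THO complex subunit of mRNA export, was at 0.97 to 1.00 throughout. Prpf40b was at 0.73 to 0.90 in the knock-downs, 0.97 in TKO and 0.99 in WT without a call.

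Chromatin genes held the lowest levels of the lists, with a median of 0.38 in TKO and 0.54 in WT over 16 events in 11 genes, against 0.96 in each library over all 316 events. The gap between the 2 medians is not a general fall in TKO. Event by event, the median absolute difference between TKO and WT was 0.03 over the 15 tested. Both medians lie between the levels of the 102-nucleotide Ehmt2 exon and the Kat5 exon, the 2 events called in TKO against WT. Exons of Smarca4, a remodelling ATPase, of Bptf, a remodeller subunit, and of Carm1 (the overlapping 121- and 200-nucleotide forms) stayed at or below 0.06 in all 7 libraries. The Dot1l exon was at 0.01 to 0.11, the Setd5 exon at 0.04 to 0.14 and the Brd2 exon at 0.08 to 0.18. Kat2a was at 0.97 to 0.99 in the knock-downs, 0.90 in TKO and 0.87 in WT, and Men1 at 0.90 to 0.94, 0.96 and 0.99. Ehmt2 had 4 events. Besides the 102-nucleotide exon, its 105-nucleotide exon was at 0.99 in all 7 libraries, a 140-nucleotide form of that exon at 0.83 to 0.96 and its 116-nucleotide exon at 0.95 to 1.00. Thus a single Ehmt2 exon was called in the cell line comparisons. In all, 2 of 15 chromatin events fell and none rose in TKO relative to WT (over all events tested, 1.39% fell and 3.18% rose). Of these 2, Kat5 fell in level only, while its reads went the other way. In the triple knock-down in TKO 1 of 15 fell relative to that in WT (over all, 0.224% fell). In the triple knock-down in WT 1 of 15 fell relative to WT (over all, 9.37% fell). In the pooled single knock-downs 1 of 16 fell relative to WT (over all, 12.6% fell). In the triple knock-down in TKO none of 14 was called relative to TKO (over all, 12.3% were called). So few calls in so few events do not set the list apart from those shares. Kmt5c, named above with a fall in the triple knock-down in WT, is a histone methyltransferase gene that the list did not hold.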

How the data were processed

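Splicing was compared over 7 libraries from 14 RNA samples, 2 replicates per group, which the authors pooled, per the labels. Bisulfite and MNase samples were not used here. Alignment tools (TopHat2, Bowtie2) and build (mm10) come from the submitters' processing notes, and their versions were not stated. Per the file headers, the authors ran MISO, which gives an inclusion level as a fraction (0 to 1) with an interval whose coverage is not stated. The deposited files also give the count of reads that fit inclusion alone, skipping alone, both or neither. Every listed event has at least 100 reads.

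Events were joined by coordinates and placed in genes by the GRCm38.p6 table (10577 of 10873 in 1 gene, 37 in several, 259 in none). Inclusion and skipping reads were compared per event by Fisher's exact test (two-sided), over all events with at least 20 such reads on each side, with Benjamini-Hochberg adjustment. Levels of pooled single knock-downs are means of 3 libraries. Zelen's exact test compared odds ratios. Python 3.11.15, scipy 1.17.1 and pandas 2.3.3 were used, and the tests were checked on simulated data. The genes named were all called events of a comparison up to 20 exons (otherwise the 10 largest differences per direction), 6 intermediate events, those with the shortest introns or most reads, 4 on either side of the limit and members of splicing lists. Further genes in the report were chosen after their values were seen. The events, lists and this rule were chosen with earlier results of these data known. RefSeq gene, miRNA and promoter tables (GRCm38.p6) gave names and sequences, and exon sequences were not analysed here. In promoter windows 83.1% of the genes had a match.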

Additional observations from a re-analysis of the deposited data

Results flagged for a closer look

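The 9 events below are those in which the knock-down difference differed between TKO and WT cells, by Zelen's exact test, with p-values adjusted over 4344 events. Each rests on 1 pooled library per group, and reads are given as inclusion and skipping reads. The Bex1 exon (exact test, adjusted p = 5.78e-42) had 4139 and 92 in the triple knock-down in TKO, against 5764 and 0 in TKO, and 1861 and 40 in the triple knock-down in WT, against 6056 and 365 in WT. The library without any skipping read was thus untransfected TKO. Actb (exact test, adjusted p = 0.000964) had 1 and 7207 in the triple knock-down in TKO, against 163 and 1921 in TKO, and 4 and 5396 in the triple knock-down in WT, against 5 and 1635 in WT. Hdgf (exact test, adjusted p = 0.0114) had 22 and 1774, against 7 and 887 in TKO, and 15 and 1428, against 45 and 1007 in WT.

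Eif5 (exact test, adjusted p = 0.00227) had 1737 and 16 in the triple knock-down in TKO, against 1500 and 80 in TKO, and 1393 and 13 in the triple knock-down in WT, against 2436 and 18 in WT. Dnajc5 (exact test, adjusted p = 0.00304) had levels of 0.22 in the triple knock-down in TKO, against 0.70 in TKO, and 0.24 in the triple knock-down in WT, against 0.43 in WT. Rpl10 (exact test, adjusted p = 0.00569) differed through its skipping reads, 62 in TKO and 4 in WT. The U2af1l4 exon (exact test, adjusted p = 0.00642) was at 0.69 in the triple knock-down in TKO, against 0.96 in TKO, and 0.71 in the triple knock-down in WT, against 0.75 in WT. Gas2l1 (exact test, adjusted p = 0.0421) had 10 and 56 in the triple knock-down in TKO, against 119 and 1 in TKO, and 4 and 18 in the triple knock-down in WT, against 128 and 36 in WT. The chromosome 12 event in no gene span (exact test, adjusted p = 0.0433) was at 0.34 in the triple knock-down in TKO, against 0.65 in TKO, and 0.39 in the triple knock-down in WT, against 0.22 in WT. In each of these 9 events, depth and platform differ between knock-down and untransfected libraries, and their part was not tested. The siRNA dose of the triple knock-down also differed between TKO and WT cells and cannot be told apart from the cell line.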

How the results depend on the processing

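No paired analysis was possible because the authors pooled both replicates of each group before deposit, and for the same reason no replicate could be left out. Of 68 recomputed counts of called events, 53 stayed within 1.5 times the count given above and 15 did not. Another limit on intron length changes how many events are counted. At 300 nucleotides, 8 of 199 events were called in TKO against WT (4.02%, against 4.57% over all events), 11 of 183 in the triple knock-down in WT against WT (6.01%, against 11.2%), 19 of 199 in the pooled single knock-downs against WT (9.55%, against 14.8%) and 3 of 181 in the test of unequal odds ratios (1.66%, against 2.69%). At 600 nucleotides, with the same shares over all events, 25 of 520 were called in TKO against WT (4.81%), 54 of 468 in the triple knock-down in WT against WT (11.5%), 68 of 522 in the pooled singles against WT (13.0%), 49 of 486 in the TKO triple knock-down against TKO (10.1%, against 12.3%) and 15 of 458 in the test of unequal odds ratios (3.28%). A level difference of 0.2 left 6 events in TKO against WT (2.01%, against 1.91%), 0 of 272 in the triple knock-down in TKO against that in WT (against 0.246%), 22 in the pooled singles against WT (7.33%, against 8.43%) and 17 in the TKO triple knock-down against TKO (6.05%, against 7.4%). With the null odds ratio taken from events of like exon length, 17 were called in the triple knock-down in WT against WT (6.27%, against 7.99%). When events with a read class at 0 were left out, a choice made after seeing the data, 17 were called in the TKO triple knock-down against TKO (6.05%, against 7.75%). The minimum of 10 or 50 reads, intervals that do not overlap, 1 event per exon, each single knock-down alone, and reads in the direction of the level (also added after seeing the data) moved no count by more than 1.5 times. In WT the HP1alpha knock-down alone gave 27 calls among 292 events (9.25%, against 11.8% over all events tested). The HP1beta knock-down alone gave 31 of 291 (10.7%, against 11.8%), and the HP1gamma knock-down alone 29 of 283 (10.2%, against 11.4%). The share at 0.95 or more and the median share of reads that fit neither isoform stayed within their intervals in 41 of 42 recomputations, the other being 31.1% at 600 nucleotides in the HP1beta knock-down. The median of distinguishing reads per event was 77 to 145 in the knock-downs, against 260 in TKO and 268 in WT, which limits what a test can call there.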
